A study of Mus musculus with 4 samples.

Results

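The antioxidant and Nrf2 pathway genes described here are a set of 10 named genes: the transcription factors Nfe2l2 and Bach1 and the enzyme genes Hmox1, Nqo1, Gclc, Gclm, Txnrd1, Prdx3, Sod2 and Cat. They were found by their platform symbols, all 10 had a probe, and together they had 12 of the 25697 probes and were 10 of the 16593 genes named on the array. Transcript levels were measured on Illumina bead arrays in a radioiodine (131I) series on Balb/c mouse tissue with the label thyroid. Its 4 samples, all marked 24 h, had absorbed doses of 0 Gy (the control), 0.85 Gy, 8.5 Gy and 17 Gy. Every dose was 1 sample on 1 array, so no difference below has a replicate check, an error or a p-value, and the number of arrays limits the precision. The labels do not state the age or sex of the mice, or how many mice made up a sample.

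Nfe2l2 encodes Nrf2, the transcription factor that switches on genes of glutathione synthesis, quinone reduction and thioredoxin reduction when oxidants or electrophiles modify its inhibitor Keap1. It binds antioxidant response elements together with a small Maf protein. Bach1 competes for the same partners and elements and represses those genes, most tightly Hmox1, until heme binds it and it leaves the DNA. The thyroid makes hydrogen peroxide to iodinate thyroglobulin, and it is a tissue in which peroxiredoxins, glutathione peroxidases and catalase are known as safeguards.

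The defining genes of the labelled tissue were mostly not measured above background. Of 11 thyrocyte markers with a probe, 9 were undetected on all 4 arrays, among them Tg, Slc5a5, Pax8 and the hydrogen peroxide generator Duox2, while Tshr and Hhex were detected on each. Of 11 fat markers, 8 were detected on all 4 arrays. The summed normalized intensity of the 14 skeletal muscle markers was 490, 387, 121296 and 703 at 0, 0.85, 8.5 and 17 Gy. That of the 11 salivary gland markers was 1141, 683, 692 and 17067 in the same order. The muscle markers therefore stood apart on the 8.5 Gy array and the salivary markers on the 17 Gy array, and the part of this in the differences from those arrays was not tested. Fewer cells of a type and less RNA per cell cannot be told apart in these samples.

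The letters TGACNNNGC are the core of the antioxidant response element, and promoter windows of RefSeq (GRCm38.p6, 250 bases before to 50 bases after a gene's start) were searched for them on both strands. The sequence TGACTCAGC, one of the forms they allow, also holds the AP-1 site TGACTCA. Of the 10 genes, 8 had a promoter entry, and 3 of these held the letters, against 3781 of 27025 genes (14%). The matches lay 240 bases before the start of Nfe2l2, 134 bases before that of Gclm and 92 bases before 1 of the 3 starts of Txnrd1. The windows below show these members and the pathway genes Prdx1 and Gsta3, whose values are given further on. Capitals mark the match, which reads TGACNNNGC on the other strand in Gclm, Txnrd1 and Prdx1. They lie at chr2:75704870-75704913 (Nfe2l2, minus strand), chr3:122245398-122245456 (Gclm, plus), chr10:82859089-82859147 (Txnrd1, plus), chr4:116685441-116685499 (Prdx1, plus) and chr1:21240439-21240497 (Gsta3, plus).
Nfe2l2: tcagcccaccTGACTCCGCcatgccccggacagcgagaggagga
Gclm: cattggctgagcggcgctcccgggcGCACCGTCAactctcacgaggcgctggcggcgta
Txnrd1: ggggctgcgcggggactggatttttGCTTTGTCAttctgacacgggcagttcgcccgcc
Prdx1: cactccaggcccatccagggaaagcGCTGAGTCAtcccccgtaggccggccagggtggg
Gsta3: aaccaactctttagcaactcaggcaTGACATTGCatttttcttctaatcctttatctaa
The letters were not found in the windows of Bach1, Nqo1, Prdx3, Sod2 and Cat, and bases outside the windows were not searched. The promoters of Hmox1 and Gclc were not analysed here.

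Bach1 was the member that differed most between the arrays. Its single probe had non-normalized intensities of 230 at 0 Gy, 116 at 0.85 Gy, 257 at 8.5 Gy and 220 at 17 Gy. Its value at 0.85 Gy had a detection p of 0.0382, above the limit of 0.01 used here, and was not well above background, where the lowest detected intensity of that array was 122. On the other 3 arrays the detection p was 0. After background correction and quantile normalization the log2 values were 7.47, 4.89, 7.43 and 7.25. The 0.85 Gy array was thus the low one, and the other 3 lay within 0.21 of each other on the log2 scale.

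Against the 0 Gy array, Bach1 had a log2 difference of -2.57 at 0.85 Gy, at least 5.02-fold lower, where "at least" takes as the dim side whichever is larger, the measured value or the lowest detected value there. Of 7682 genes tested in that comparison, 8 had a lower log2 difference. Its log2 differences were -0.03 at 8.5 Gy and -0.21 at 17 Gy. Set against the 0.85 Gy array, Bach1 was at least 4.9-fold higher at 8.5 Gy and at least 4.33-fold higher at 17 Gy. These bounds hold on the background-corrected scale alone. In the authors' normalized values the log2 difference at 0.85 Gy against 0 Gy was -1.35, and with no background correction it was -1.14. The log2 differences from the 0.85 Gy array were 1.33 at 8.5 Gy and 1.21 at 17 Gy in the authors' values, and 1.11 and 1.0 with no background correction. These values come from 1 probe, and the comparisons share arrays.

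**Figure D1:**
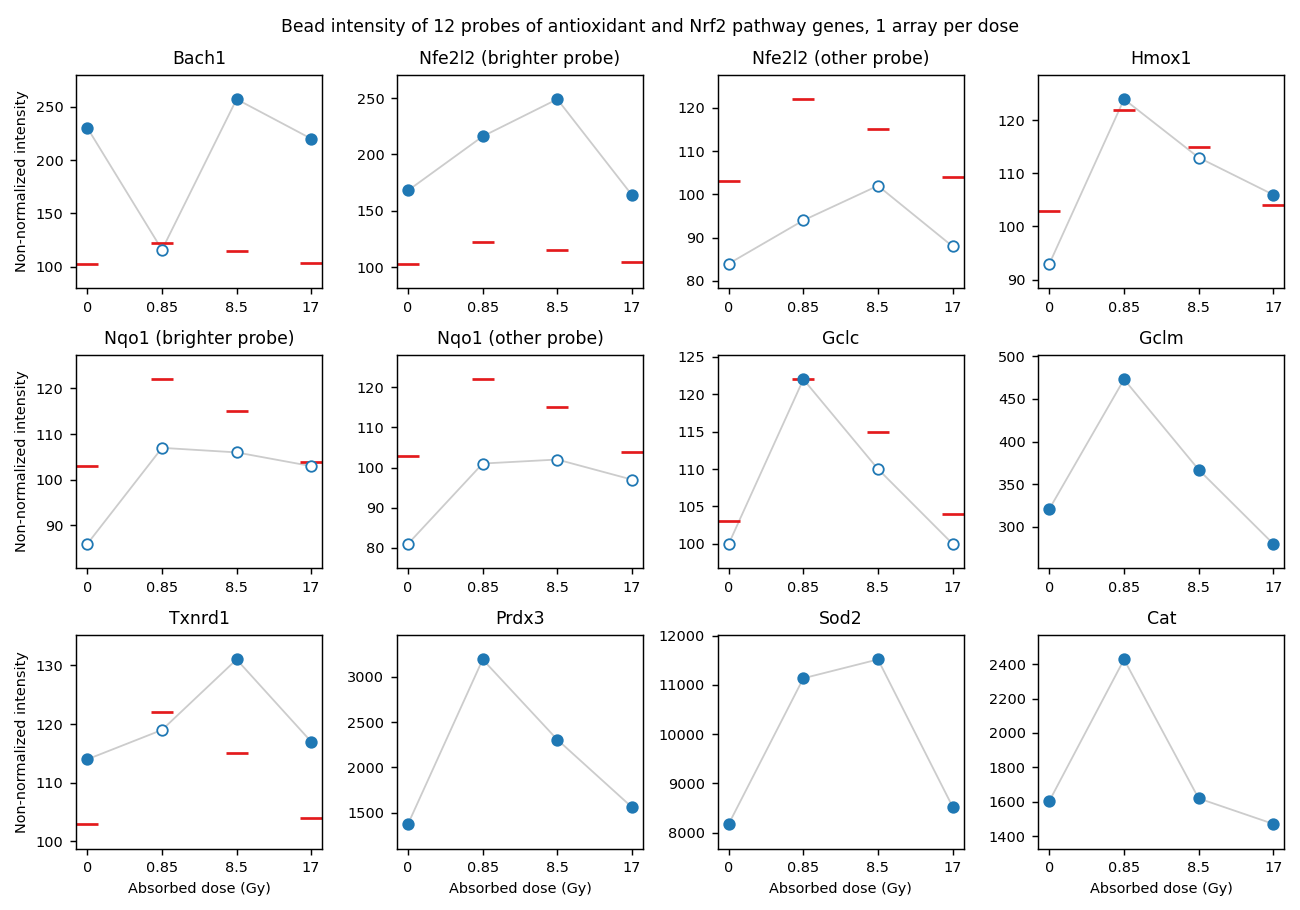
Non-normalized bead intensity (linear axis, its own range in each panel and not starting at 0) of the 12 probes against absorbed dose in Gy, 1 array per dose. Filled circles have a detection p under 0.01, open circles do not, and red bars (drawn for probes with intensities under 400) give the lowest detected intensity of each array; Bach1 falls below its bar at 0.85 Gy, with 116 against 122.

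Bach1 was the single member at least 2-fold lower than on the 0 Gy array at 0.85 Gy, 1 of 9 members tested, and 3.68% of all genes tested were. None of the members tested was at least 2-fold higher at 0.85 Gy, where 1.78% of all genes tested were. At 8.5 Gy, 0 of 7 members were 2-fold higher and 0 lower, beside 2.63% and 3.63% of all genes. At 17 Gy, 0 of 8 members were 2-fold higher and 0 lower, beside 0.88% and 0.459% of all genes. In the authors' normalized values the genes 2-fold apart at 8.5 Gy were 99 higher and 82 lower, where background correction gave 207 and 285. Tested genes passed the detection limit of 0.01 on 1 or both of the arrays in a comparison. The median log2 difference of the members tested was 0.13 at 0.85 Gy, 0.03 at 8.5 Gy and -0.12 at 17 Gy, and over all genes tested it was -0.01, -0.04 and 0.00.

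Between the dosed arrays, 1 of 9 members, Bach1, was at least 2-fold higher at 8.5 Gy than at 0.85 Gy (3.27% of all genes) and again 1 of 9 at 17 Gy than at 0.85 Gy (3.45%). No member was 2-fold lower in these comparisons, where 1.48% and 1.35% of all genes were. Between 17 and 8.5 Gy, 0 of 8 members were 2-fold apart, where 3.47% of all genes were higher and 2.65% lower.

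**Figure D2:**
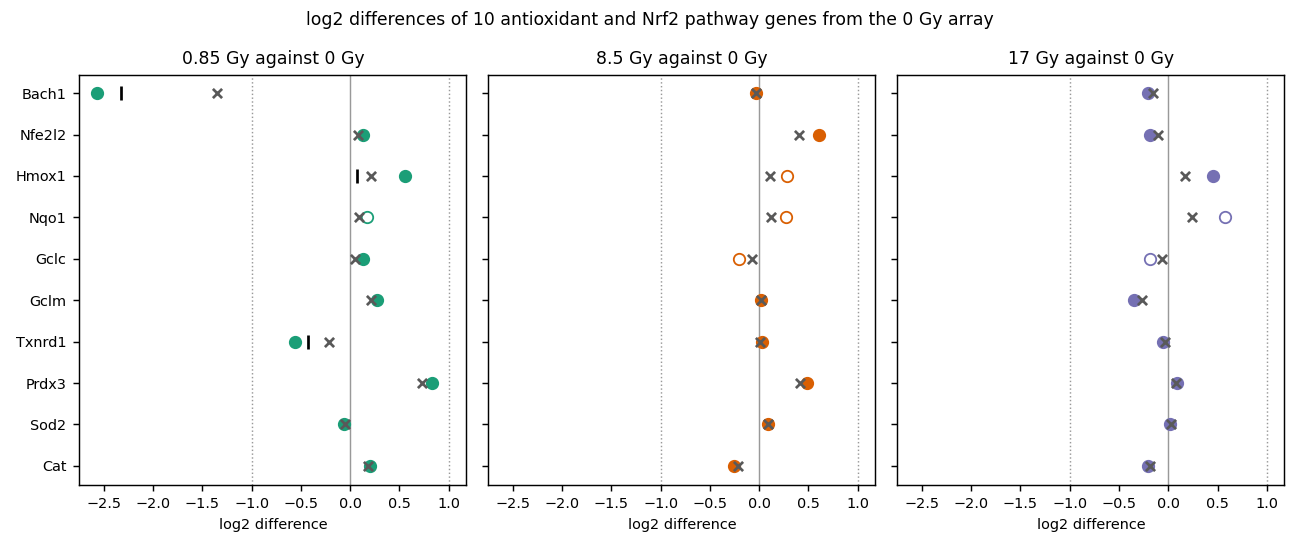
log2 difference of each gene from the 0 Gy array at 0.85, 8.5 and 17 Gy (1 array each). Filled circles are background-corrected, quantile-normalized values of tested genes, open circles genes not detected on either array, crosses the authors' normalized values and vertical ticks the bound for genes measured above background on a single array of the pair; dotted lines mark 2-fold, and Bach1 at -2.57 is the single point outside them.

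The activator Nfe2l2 had intensities of 168, 216, 249 and 164 in order of dose at its brighter probe, which was detected on all 4 arrays. Its log2 differences from 0 Gy were 0.13 at 0.85 Gy, 0.61 at 8.5 Gy and -0.18 at 17 Gy. It was highest on the 8.5 Gy array, which carried the skeletal muscle markers, 1.53-fold above 0 Gy and 1.73-fold above 17 Gy. In the authors' normalized values the log2 difference was 0.40 at 8.5 Gy against 0 Gy and -0.50 at 17 Gy against 8.5 Gy. With no background correction the difference of 8.5 Gy from 0 Gy was 0.36. The other Nfe2l2 probe, at 84, 94, 102 and 88, was not well above background on any array.

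Among the other regulators, the list of 14 genes with a probe had 12 tested at 0.85 Gy, of which 0 were 2-fold higher and 1, Bach1, was lower. Of all genes tested at 0.85 Gy, 1.78% were 2-fold higher and 3.68% lower. The list's median log2 difference was 0.07 at 0.85 Gy, 0.11 at 8.5 Gy and -0.05 at 17 Gy, with 0 of 12 and 0 of 11 genes 2-fold apart at the higher doses. Keap1, the inhibitor that hands Nrf2 to degradation, had log2 differences of 0.38, 0.26 and -0.05 in order of dose at its brightest probe. Its other probes at 0.85 Gy gave 0.27, -0.85 and -0.67, so its probes differed in direction. Mafg, a small Maf partner of both factors, had intensities of 525, 634, 566 and 564 and log2 differences of -0.10, -0.08 and 0.05. Maff, another small Maf, was not well above background at 0 and 17 Gy and was at least 1.67-fold higher at 8.5 Gy on the background-corrected scale. In the authors' normalized values this log2 difference was 0.39, below that bound, and its intensities were 99, 126, 142 and 96.

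Hmox1, the heme-degrading oxygenase that Bach1 represses most tightly, was near background throughout. Its intensities were 93 at 0 Gy, 124 at 0.85 Gy, 113 at 8.5 Gy and 106 at 17 Gy, and the detection p was 0.113, 0.00382, 0.0153 and 0. It was thus detected at 0.85 and 17 Gy and not well above background on the other arrays. Against 0 Gy its log2 difference was 0.56 at 0.85 Gy, which as a bound is at least 1.05-fold higher. At 17 Gy the log2 difference was 0.45 and the bound gave no fold above 1. Across all settings tried that kept it, bounds included, the 0.85 Gy difference lay between 0.07 and 0.56. The summed level of 12 macrophage and neutrophil markers, cells that can express Hmox1, was 2038, 3125, 2243 and 3786 in order of dose. Of the 12, 11 were detected on all 4 arrays. These markers did not share 1 direction at 0.85 Gy, where 9 of 11 tested were above 0 Gy and 2 below. S100a9, S100a8 and Lyz2 were at 1.88, 1.74 and 1.17 log2, and Mrc1 and Cd163 at -0.43 and -0.89. Another Lyz2 probe, detected on all 4 arrays, was at 0.16. The part of these cells in the Hmox1 values was not tested.

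The list of heme and iron handling, Hmox1 included, had 15 genes with a probe. Of these, 14, 12 and 13 were tested at 0.85, 8.5 and 17 Gy, and at each gene's brightest probe 0 were 2-fold apart in any of these comparisons. Hp, haptoglobin, which binds free hemoglobin, had intensities of 2444, 5477, 3816 and 2756 at that probe and log2 differences of 0.70, 0.30 and 0.11. Its other probes, both detected on all 4 arrays, were beyond 2-fold at 0.85 Gy, with 1.25 and 1.54, and stood at 0.81 and 1.18 at 8.5 Gy. Cd163, the macrophage receptor that takes up the haptoglobin complex, was at -0.89, -0.87 and 0.58. Tfrc, the transferrin receptor, was at 0.03, 0.62 and 0.40. The other Tfrc probe, detected on all 4 arrays, was at -0.69, 0.43 and 0.04. The list's median log2 differences were 0.13, 0.07 and 0.04. Fth1, the heavy chain of ferritin and a gene that Bach1 can repress, had intensities of 25282, 35095, 28083 and 22524 and log2 differences of 0.13, -0.06 and -0.06. Ftl1, the light chain, had 1 probe, which was undetected on all 4 arrays at 76, 96, 88 and 86. Whether that probe reports the transcript was not tested. Blvra and Blvrb, the biliverdin reductases that act after Hmox1, had log2 differences of 0.19 and 0.14 at 0.85 Gy. Ferritin genes have processed copies in the genome, so signal shared with them is uncertain.

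Nqo1, a quinone reductase and a usual readout of Nrf2 activity, was not well above background on any array. Its brighter probe had intensities of 86, 107, 106 and 103 in order of dose, with a detection p of 0.0102 at 17 Gy, just outside the limit. Its other probe read 81, 101, 102 and 97. Nqo1 was therefore tested in no comparison, and no fold is given. The normalized log2 values of the brighter probe were 4.39, 4.56, 4.65 and 4.97, close to the floor of the scale. Nqo1 was the single member whose values stood in the order of dose, and all of them were below the detection limit.

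The quinone and conjugation list had 18 of 22 genes tested in each comparison with 0 Gy. None of them was 2-fold from 0 Gy at 0.85 Gy (0 higher, 0 lower), and the median log2 difference was 0.10. At 8.5 Gy 0 were higher and 1 lower (median -0.24), and at 17 Gy 0 and 0 (median -0.11). Of all genes tested at 8.5 Gy, 2.63% were 2-fold higher and 3.63% lower. Gsta3, a glutathione transferase, had intensities of 1874, 2670, 821 and 1812, so that the 8.5 Gy array, which carried the muscle markers, was the low one. It was 2.91-fold lower there, with -1.54 log2 at this probe and -0.47 at its other probe. The other Gsta3 probe was dim, at 108, 151, 112 and 104, and at 8.5 Gy it was below that array's lowest detected intensity of 115. Carbonyl reductase Cbr1 had intensities of 424, 885, 598 and 702 and log2 differences of 0.81, 0.37 and 0.78, all under 2-fold. The glutathione transferases Gstm5 and Gstp1 were at 0.81 and 0.78 at 0.85 Gy, 0.87 and 0.73 at 8.5 Gy, and -0.08 each at 17 Gy. Another Gstp1 probe, detected on all 4 arrays, was at 0.86, 0.96 and 0.36, so the probes differed in direction at 17 Gy. Transferases of the alpha, mu and pi classes have close relatives that can share a probe's signal, and their values are uncertain.

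Gclm, the modifier subunit of the enzyme that limits glutathione synthesis, was detected on all 4 arrays with intensities of 321, 473, 367 and 280. Its log2 differences from 0 Gy were 0.27 at 0.85 Gy, 0.02 at 8.5 Gy and -0.35 at 17 Gy. Thus the 0.85 Gy array was the highest and the 17 Gy array the lowest, 1.54-fold apart. Gclc, the catalytic subunit, had intensities of 100, 122, 110 and 100 with a detection p of 0.0214, 0.00763, 0.0471 and 0.028. It was thus detected at 0.85 Gy alone, just inside the limit, and the bound against 0 Gy gave no fold above 1.

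Of 18 glutathione genes with a probe, 17 were tested at 0.85 Gy and 16 at each higher dose. At 0.85 Gy 0 were 2-fold higher and 0 lower, at 8.5 Gy 1 was higher and 0 lower, and at 17 Gy 0 and 0. Of all genes tested at 8.5 Gy, 2.63% were 2-fold higher and 3.63% lower. The medians of the glutathione genes were 0.12, 0.02 and -0.19 log2. Chac1, an enzyme that breaks glutathione down and a target of the integrated stress response, had intensities of 111, 146, 200 and 109. At 8.5 Gy, the high array, it was 2.63-fold above 0 Gy (1.39 log2). In the authors' normalized values this difference was 0.73, and with no background correction 0.61. Slc7a11, which imports cystine for glutathione and is repressed by Bach1, was undetected on all 4 arrays at 82, 94, 88 and 87. The abundant peroxidase genes Gpx1, Gpx3 and Gpx4 had log2 differences of 0.28, 0.26 and 0.40 at 0.85 Gy, 0.04, -0.29 and 0.22 at 8.5 Gy, and 0.05, 0.05 and 0.11 at 17 Gy, so Gpx3 stood lower at 8.5 Gy. Gsr had no probe in the value table.

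Txnrd1, the cytosolic thioredoxin reductase, had intensities of 114, 119, 131 and 117. The detection p was 0.0242 at 0.85 Gy and 0 on the other 3 arrays. It was not well above background at 0.85 Gy, where its log2 difference from 0 Gy was -0.56, at least 1.35-fold lower on the background-corrected scale. The difference was -0.22 in the authors' normalized values and -0.17 with no background correction, both smaller than that bound. At 8.5 and 17 Gy its log2 differences were 0.03 and -0.05. Txnrd1 and Bach1 were the members detected on every array except the 0.85 Gy one. That array had the highest background mean, 101 against 86 at 0 Gy, 97.2 at 8.5 Gy and 88.5 at 17 Gy, and its part in these low values was not tested.

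Prdx3, the peroxiredoxin that removes hydrogen peroxide in mitochondria, was the member with the largest positive difference from 0 Gy. Its intensities were 1376 at 0 Gy, 3194 at 0.85 Gy, 2308 at 8.5 Gy and 1561 at 17 Gy. After normalization it was 1.78-fold higher at 0.85 Gy, 1.39-fold at 8.5 Gy and 1.07-fold at 17 Gy, which is 0.83, 0.48 and 0.09 log2. Of 7682 genes tested at 0.85 Gy, 265 had a higher log2 difference. The 0 and 17 Gy arrays lay close together and the 0.85 Gy array was the high one. Prdx3 was 1.67-fold lower at 17 Gy than at 0.85 Gy. Across all settings tried its difference at 0.85 Gy lay between 0.73 and 0.96.

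The mitochondrial partners of Prdx3 did not share 1 direction. Txnrd2, the mitochondrial thioredoxin reductase, had intensities of 712, 1466, 1116 and 865 and log2 differences of 0.74, 0.46 and 0.24, with 0.32, 0.24 and -0.10 at its other probe. Txn2, the mitochondrial thioredoxin between them, was at -0.15, -0.32 and -0.27. The 19 respiratory chain subunits tested, another measure of mitochondrial transcripts, had median log2 differences of 0.13, 0.21 and 0.00. At 0.85 Gy 14 of these subunits were above the 0 Gy array and 4 below, with values from -0.22 to 0.97. Cycs (0.97), Atp5o (0.94) and Atp5pb (0.88) were the highest there, each above Prdx3 (0.83). The other Cycs probe was at 0.01 on that array. At 8.5 Gy 2 of the subunits tested, Atp5pb (1.01) and Cycs (1.14), were 2-fold higher, beside 2.63% of all genes tested. In the authors' normalized values these 2 were at 0.90 and 0.93, and the other Cycs probe, detected on all 4 arrays, was at 0.22. The fat markers, whose brown fat genes come from cells rich in mitochondria, summed to 48283, 44731, 48799 and 46768. Their brown fat genes did not move together. Ucp1 was at -0.12, 0.57 and 0.12 log2, Cidea at -0.09, -0.20 and -0.22, and Elovl3 at -0.53, -0.15 and -0.78. Dio2 was undetected on all 4 arrays. The part of tissue makeup in the Prdx3 values was not tested.

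The thioredoxin and peroxiredoxin list had 13 of 14 genes tested in each comparison with 0 Gy, and 0 were 2-fold apart in any of them. Its medians were 0.15, 0.13 and 0.01 log2. Prdx1, a cytosolic peroxiredoxin with the element's letters in its window, had intensities of 6767, 7674, 8235 and 6671 and was at -0.34, -0.11 and -0.06, with 0.17, -0.21 and 0.18 at its other probe. That other probe was close to background, at 105, 130, 115 and 114, beside lowest detected intensities of 103, 122, 115 and 104. Srxn1, which repairs overoxidized peroxiredoxins and is an Nrf2 target, had intensities of 338, 467, 462 and 370 and log2 differences of 0.15, 0.35 and 0.08. Its other probes, detected on all 4 arrays, were at 0.18 and 0.26, at -0.28 and 0.39, and at 0.14 and -0.51 in order of dose, so the probes differed in direction at the higher doses. Txn1, the cytosolic thioredoxin, was at 0.23, 0.36 and -0.36. Its other probes were undetected on all 4 arrays.

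Sod2, the manganese superoxide dismutase of the mitochondrial matrix, varied little. Its intensities were 8178, 11137, 11519 and 8529, and the log2 range over the 4 arrays after normalization was 0.15, the smallest of the 10 genes. In the authors' values it was 0.14, and there Gclc had a smaller range, 0.12. The log2 differences of Sod2 from 0 Gy were -0.06, 0.09 and 0.02, and with scaling to the 75th percentile they were 0.16, 0.31 and -0.04. The higher raw intensities at 0.85 and 8.5 Gy went with brighter arrays. Cat, the peroxisomal catalase, had intensities of 1606, 2427, 1620 and 1472. Its log2 differences were 0.20 at 0.85 Gy, -0.26 at 8.5 Gy and -0.21 at 17 Gy, so the 0.85 Gy array was high, 1.38-fold above the 8.5 Gy array. Red blood cells carry much catalase, and the summed level of 6 erythrocyte markers was 14277, 20081, 24028 and 15769, highest at 8.5 Gy, where the log2 value of Cat was lowest. Of these 6, Bpgm and Epb42 were undetected on all 4 arrays, and the part of red blood cells in the Cat values was not tested.

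The other dismutase genes also stayed within 2-fold of 0 Gy. Of 5 genes on that list, all detected on all 4 arrays, 0 were 2-fold apart at any dose, and the medians were 0.09, -0.09 and 0.03 log2. Cytosolic Sod1 was at 0.09, -0.12 and 0.03, and secreted Sod3, with intensities of 178, 286, 213 and 214, at 0.59, 0.12 and 0.29. The 7 tested genes that supply NADPH had medians of 0.06, -0.08 and -0.06, with 0 genes 2-fold apart. Among them Me1, malic enzyme, was at -0.59 at 8.5 Gy, with 0.04 at its other probe. G6pdx had no probe in the value table.

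**Figure D3:**
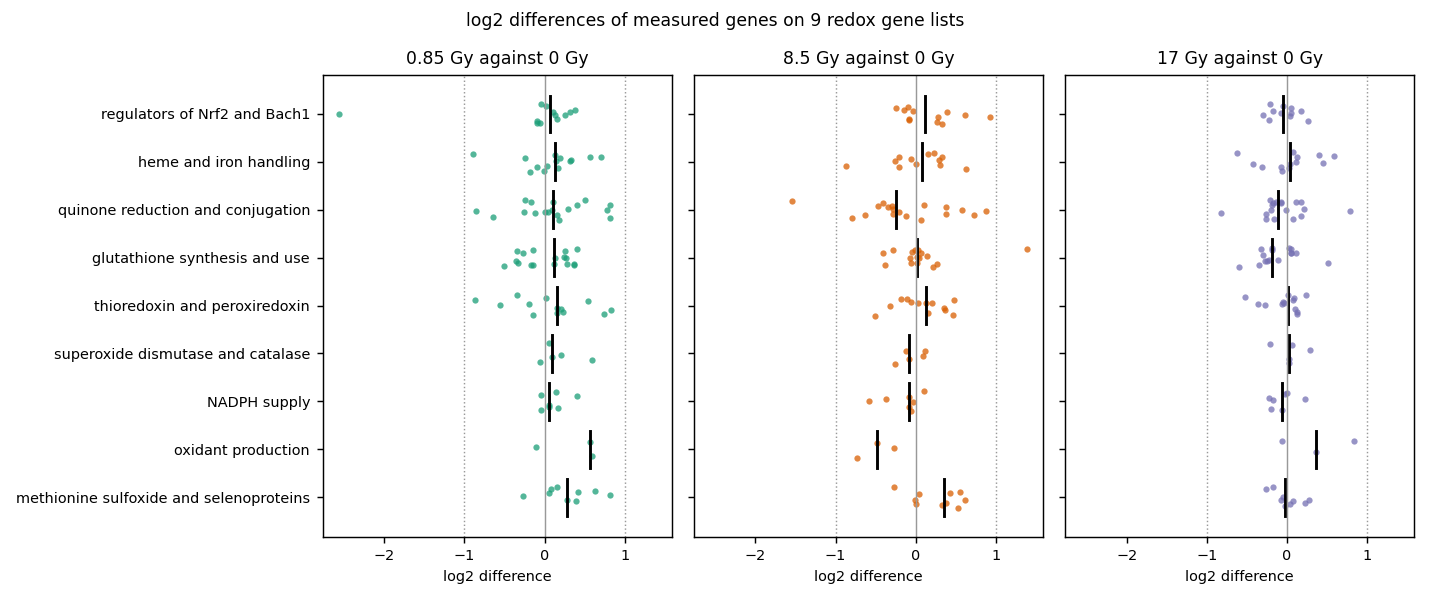
log2 difference from the 0 Gy array of each tested gene on 9 redox gene lists at 0.85, 8.5 and 17 Gy, 1 array per dose. Points are genes, spread vertically for sight only, black bars are list medians and dotted lines mark 2-fold; the 3 points beyond them are Bach1 at 0.85 Gy (-2.57) and Gsta3 (-1.54) and Chac1 (1.39) at 8.5 Gy.

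Genes that Bach1 is known to repress, picked from the lists with their values already seen, were set side by side on the array where Bach1 was low. At 0.85 Gy against 0 Gy, Gclm was at 0.27, Fth1 at 0.13, Me1 at 0.06, Slc48a1, a heme transporter, at -0.01 and Mafg at -0.10 log2. The other probes of Fth1 and Me1, each detected on all 4 arrays, were at 0.00 and 0.29. Hmox1 had its bound of at least 1.05-fold, and Nqo1 and Slc7a11 were not measured above background. The pick is partial. Among list genes left out of it, Gclc was at 0.13, Slc40a1 at -0.18 and Txnrd1 at -0.56. Gclc was undetected at 0 Gy, with a bound of no fold above 1, and Txnrd1 was undetected at 0.85 Gy. Ftl1, also left out, was undetected on all 4 arrays. No 2-fold limit can be set for Hmox1, Nqo1 and Slc7a11, whose 0 Gy values were not well above background.

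Redox list genes tested at 0.85 Gy with a promoter entry were grouped by whether the searched window held TGACNNNGC. The 18 with it there had a median log2 difference of 0.14, and the 67 without it there had 0.12. At 8.5 Gy the medians were 0.02 over 17 genes and 0.01 over 68 genes, and at 17 Gy -0.07 over 16 and -0.03 over 67. Between 17 and 0.85 Gy they were -0.25 over 17 and -0.13 over 67. Of all genes tested at 0.85 Gy, 9 of 1056 with the letters and 100 of 5219 without were 2-fold higher than at 0 Gy, and 45 and 187 were 2-fold lower. These are counts on 1 pair of arrays with no test.

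The genes nearest to Bach1 in their 3 log2 differences from 0 Gy, by the largest gap among 8382 other genes detected on at least 1 array, were Klf6, Enpp4, Zbtb7a, Pank3 and Zc3h13. Their log2 differences at 0.85 Gy were -2.38, -2.21, -2.54, -2.14 and -2.12. Their order carries no information, because Bach1 was not well above background at 0.85 Gy and its value there depended on the setting. Klf6, a zinc finger transcription factor, was the brightest of them, with intensities of 1322, 405, 1258 and 1154, so that its low value at 0.85 Gy lay above that array's lowest detected intensity of 122. Zc3h13 had 116 there, below it. No nearest genes are given for Hmox1, which was not well above background at 0 and 8.5 Gy.

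**Figure D4:**
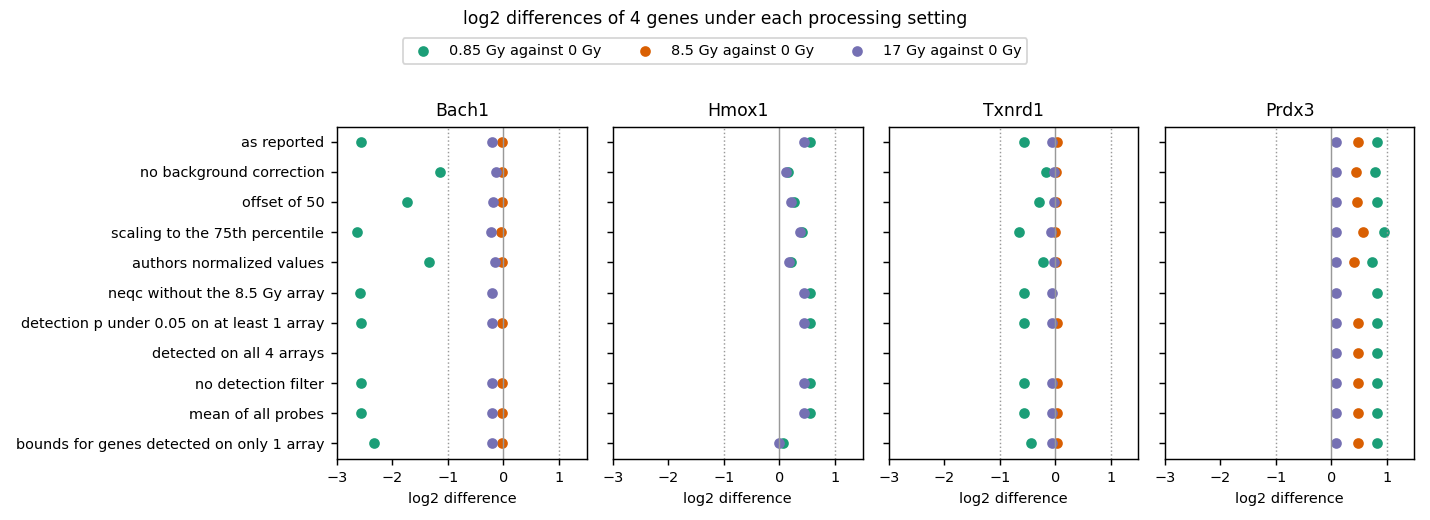
log2 difference from the 0 Gy array of Bach1, Hmox1, Txnrd1 and Prdx3 under each processing setting (rows), with green points for 0.85 Gy, orange for 8.5 Gy and violet for 17 Gy, 1 array each. Dotted lines mark 2-fold; Bach1 at 0.85 Gy lies between -2.64 and -1.14 in every setting that kept it, and it is absent where detection on all 4 arrays was required.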

How the data were processed

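The deposited tables hold mean bead intensity per probe on a linear scale, without normalization and after quantile normalization by the authors, and a detection p-value per probe and array, per the file headers and values. RNA was extracted with a kit for lipid-rich tissue, per the labels' protocols. The sources used here name neither scanner software nor genome build.

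From the non-normalized intensities, limma 3.58.1 (R 4.3.3) inferred the background from the detection p-values, corrected it by normexp, added an offset of 16, quantile normalized and took log2 (neqc). Log2 differences are between single arrays. A gene's brightest probe over the 4 arrays stood for it, and a gene was tested with a detection p under 0.01 on at least 1 array compared. The authors' deposited normalized values, as log2(value + 16), were an alternative. The settings tried were background, offset, scaling, detection filter, probe choice, fold and bounds. Recovery of known folds was tested on simulated data, with the folds set in brighter probes alone. Bach1, Nfe2l2, Hmox1, Nqo1, Gclc and Txnrd1 were dimmer than those probes, so the simulation does not cover them. Tables were made in Python 3.11.15 with pandas 2.3.3.

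Of 25697 probes, 23978 had 1 gene symbol, 0 several and 1719 none, from the platform annotation, which can be old. Of 129 genes on the 9 redox lists, 116 had a probe. Named genes were the 10 members, 10 pathway genes (Keap1, Mafg, Slc7a11, Srxn1, Txn1, Prdx1, Gsr, G6pdx, Fth1, Ftl1), list genes 2-fold from 0 Gy with the same direction in the authors' values, and the 5 genes most like Bach1 (those for Hmox1 are left out, since it was undetected on 2 arrays). Other list genes named were chosen after their values were seen. The members and lists were chosen with earlier results of these data known.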

Additional observations from a re-analysis of the deposited data

How the results depend on the processing

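With 1 array per dose, leaving out a replicate could not be run. No paired analysis was possible because each dose is 1 sample and no result comes from a test. Where detection on all 4 arrays was required, Bach1 was left out for its undetected value at 0.85 Gy, and the members 2-fold lower at 0.85 Gy against 0 Gy came to 0, as did those higher at 8.5 and at 17 Gy against 0.85 Gy (1 each as reported). At 1.5-fold against 0 Gy, 1 of 9 members was higher at 0.85 Gy and 1 of 7 at 8.5 Gy. Over all genes tested, 720 of 7682 and 728 of 7862 were. At 1.5-fold against 0.85 Gy, 2 of 9 members were higher at 8.5 Gy and 2 of 9 lower at 17 Gy. Over all genes tested, 687 of 7822 and 660 of 7852 were. At 17 Gy, 1 of 8 members was 1.5-fold lower than at 8.5 Gy, beside 704 of 8038 genes. No member count moved under the other settings. Taking each member, comparison and setting as 1 value, 447 stayed within 0.5 log2 of the reported difference and on its side of 2-fold, and 9 did not, all of Bach1. Within that tolerance, Hmox1 at 0.85 Gy ran from 0.07 to 0.56 and at 17 Gy from 0.00 to 0.45, both lowest at their bounds. At 0.85 Gy against 0 Gy Bach1 was -1.14 without background correction, -1.73 with an offset of 50 and -1.35 in the authors' values. Over all genes, the 137 higher and 283 lower at 0.85 Gy became 19 and 78 without background correction, 47 and 132 with an offset of 50, and 24 and 87 in the authors' values. At 8.5 Gy the 207 and 285 became 84 and 71, 117 and 123, and 99 and 82 in the same order, and at 17 Gy the 69 and 36 became 14 and 1, 19 and 4, and 16 and 1. Signal close to background limits Hmox1, Nqo1, Gclc and Txnrd1.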

Other observations

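Genes that make oxidants were mostly not measured. Of 8 with a probe, Nox1, Nox4, Cybb, Ncf1 and Duox2 were undetected on all 4 arrays, and each array detected 2 or 3 of the others. Cyba, the shared membrane subunit of several NADPH oxidases, had log2 differences of 0.59 at 0.85 Gy, -0.27 at 8.5 Gy and 0.36 at 17 Gy. A list of methionine sulfoxide reductases and selenoproteins had 9, 10 and 9 of 11 genes tested at 0.85, 8.5 and 17 Gy, with 0 genes 2-fold apart and medians of 0.28, 0.35 and -0.03 log2. Selenok, a selenoprotein of the endoplasmic reticulum, was at 0.81 at 0.85 Gy.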
